A study of Mus musculus with 9 samples.

Results

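Acta2, Tagln, Pdgfra, Pdgfrb, Mfap5, Cd34, Krt8 and Krt18 are genes best known from stromal cells, smooth muscle and simple epithelia, and their expression is described here in mouse cumulus cells. The 8 genes were chosen from 18194 genes on the array by their measured changes in the mutants in an earlier analysis of the same arrays. Their levels and differences are therefore given as a description with no test, in each of the 3 comparisons between genotypes. All 16 probe sets annotated to these genes alone were read on all 9 arrays. A probe set is a group of short probes on the array that together measure 1 or more transcripts.

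Cumulus cells are the granulosa cells that enclose the oocyte in the antral follicle. They came from wildtype females, from Bmp15-/- females, which lack the growth factor BMP15, and from Bmp15-/-Gdf9+/- females (DM), which lack BMP15 and carry 1 functional copy of Gdf9. All 3 genotypes shared a B6/129 background. Females aged 4 to 5 months were given 5 IU of equine chorionic gonadotropin for 48 hours, large antral follicles were punctured, and 75 to 100 complexes from 3 to 4 mice made up each of the 3 samples per genotype. The cells were stripped from the oocytes in medium with 5 µM milrinone, which holds oocytes in meiotic arrest, and both deletions act in the whole animal throughout life. Bmp15 and Gdf9 are transcribed by the oocyte, which was removed, so their levels were not used to check the labels.

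Smooth muscle alpha-actin, encoded by Acta2, and transgelin, encoded by Tagln, belong to the contractile apparatus of smooth muscle, and both genes are textbook targets of serum response factor (SRF). In the ovary smooth muscle alpha-actin is known from vessel walls and the outer theca, while platelet-derived growth factor receptors mark mesenchymal cells, receptor alpha in fibroblasts and theca precursors and receptor beta in pericytes. Keratins 8 and 18 are obligate partners that assemble into the intermediate filaments of simple epithelia, and keratins are also known in granulosa cells of several species. Markers of other cell types were read beside these genes. As each sample pools many cells, this cannot tell more cells of a type from more RNA per cell.

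Values are log2 expression, so 1 unit is a doubling, and errors of group means are the SD over 3 arrays. Because probes differ in brightness, levels of different genes were not set against each other. As a mark of low signal the 40th percentile of each array was used, which lay between 4.97 and 5.05. Of the 16 probe sets, 8 exceeded it on all 9 arrays and 14 on at least 1 array.

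Acta2 stood apart by the size of its difference in DM. Its brightest probe set measured 5.45, 5.92 and 5.39 (wildtype), 5.93, 5.95 and 6.49 (Bmp15-/-) and 7.74, 7.47 and 7.82 (DM). The 3 genotypes did not overlap: every DM array lay above every Bmp15-/- array, and these lay above every wildtype array, the nearest pair being 5.93 against 5.92. Group means were 5.59 ± 0.29, 6.12 ± 0.32 and 7.68 ± 0.18 (SD, n = 3). Relative to wildtype the difference was 0.54 ± 0.19 (SE of the fit) in Bmp15-/-, 1.45-fold, and 2.09 ± 0.19 in DM, 4.26-fold. DM exceeded Bmp15-/- by 1.55, 2.94-fold. Without Bmp15-/- replicate 3 the Bmp15-/- difference was 0.35.

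The other Acta2 probe sets did not show this. One, annotated to Acta2 alone like the first, read between 3.56 and 3.94 and never exceeded the 40th percentile. The other lay between 4.79 and 5.29, with differences of 0.16 ± 0.11 in Bmp15-/- and 0.21 ± 0.11 in DM. The Acta2 difference therefore rests on 1 probe set of 3, and with the mean of all 3 it was 0.74 in DM. The array's naming marks that probe set as one whose probes can match several related transcripts. Of the related muscle actins, Actg2 read between 3.88 and 4.07 and Actc1 between 3.84 and 4.09, below the 40th percentile on all 9 arrays. Acta1 read between 4.54 and 5.20 and exceeded it on 1 array, from Bmp15-/-. The actins that many cell types express were bright. Actb read between 13.61 and 13.84, and Actg1 averaged 12.77, 12.96 and 13.22 in wildtype, Bmp15-/- and DM. Which actin transcripts the Acta2 probe set matches was not tested.

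The sequence upstream of Acta2 was read because SRF, described below, binds the CArG box found in promoters of muscle actins. The RefSeq promoter table (GRCm38.p6) gave 250 bases before a transcript start at chr19:34255374-34255623 on the minus strand. That start lies inside the annotated gene interval, chr19:34240336-34255585, so 212 of these bases fall within the interval and the window need not lie before other transcript starts. Both CArG-like matches of the window are shown with 10 bases on each side, 5′ to 3′, at chr19:34255438-34255467 and chr19:34255388-34255417, with the match in capitals.

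Acta2 first match: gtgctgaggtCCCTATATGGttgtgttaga
Acta2 second match: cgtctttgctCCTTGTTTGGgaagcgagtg

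The exact CArG box did not occur in this window, and 2 matches with 1 mismatch in the A/T core did, CCCTATATGG at 84 to 75 bases and CCTTGTTTGG at 34 to 25 bases before the start that the table uses. Both strands were searched. Among 32851 promoter windows of the same length, 1.47% held an exact box and 8.59% at least 1 with a mismatch. Promoter windows were matched for 5 of the 8 genes, and those of Pdgfra, Cd34, Krt8 and Krt18 held neither form, the Pdgfra window lying wholly inside its gene interval. The letters TATAAA of the TATA box, present in 12.4% of windows, did not occur in the 5. Nor did GGGCGG, to which Sp1 binds, present in 32.7%, or the AP-1 site TGANTCA, present in 6.75%. A match is a string of letters and was not measured as a bound site.

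Tagln, the other smooth muscle gene of the set, did not separate the genotypes. Its single probe set read 5.39, 5.51 and 5.36 (wildtype), 5.62, 5.32 and 5.68 (Bmp15-/-) and 5.84, 5.42 and 5.54 (DM). The arrays of all 3 genotypes overlapped, and the differences of 0.12 in Bmp15-/- and 0.18 in DM were near their standard error of 0.13. Acta2 was thus higher in both mutants while Tagln, usually expressed beside it in smooth muscle, stayed within 0.52 units over all 9 arrays.

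**Figure D1:**
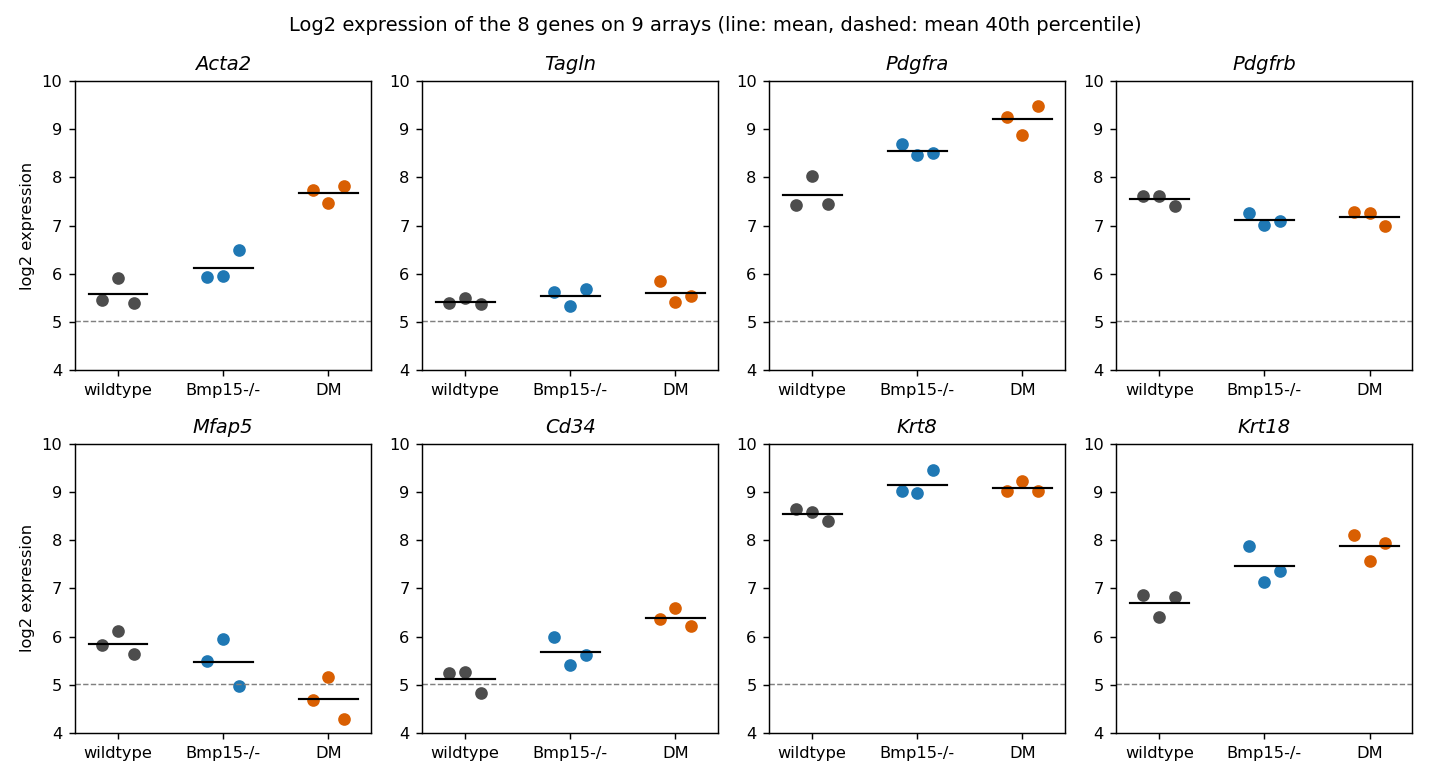
Log2 expression (vertical axis) of the brightest probe set of each gene on 3 wildtype, 3 Bmp15-/- and 3 DM arrays; points are arrays, bars are group means and the dashed line is the mean 40th percentile, 5.02. Acta2 averages 5.59 in wildtype and 7.68 in DM without overlap, the Tagln arrays overlap, and Mfap5 and Pdgfrb lie lower in DM.

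The 2 platelet-derived growth factor receptors went opposite ways. Pdgfra, a receptor for ligands that include A and C, measured 7.43, 8.03 and 7.44 (wildtype), 8.70, 8.46 and 8.51 (Bmp15-/-) and 9.25, 8.88 and 9.47 (DM). No array of 1 genotype reached into another: the highest wildtype array, 8.03, lay below the lowest Bmp15-/- array, 8.46. Group means were 7.63 ± 0.34, 8.56 ± 0.12 and 9.20 ± 0.30 (SD, n = 3), a difference from wildtype of 0.92 ± 0.19 (SE) in Bmp15-/-, 1.90-fold, and 1.57 ± 0.19 in DM, 2.96-fold.

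A dimmer Pdgfra probe set ran the same way, at 4.83, 4.23 and 4.45 (wildtype), 4.67, 5.69 and 5.28 (Bmp15-/-) and 6.45, 5.23 and 5.57 (DM). Its DM arrays lay above all wildtype arrays, and its Bmp15-/- arrays overlapped them. Its differences were 0.71 ± 0.34 and 1.24 ± 0.34. The third Pdgfra probe set was below the 40th percentile on every array, with differences of -0.05 and -0.18.

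Pdgfrb, a receptor for ligands B and D, was lower in both mutants on both of its probe sets. The brighter one read 7.62, 7.61 and 7.41 (wildtype), 7.26, 7.00 and 7.10 (Bmp15-/-) and 7.28, 7.26 and 7.00 (DM). Both mutants lay below all wildtype arrays and overlapped each other, with differences of -0.43 ± 0.11 and -0.37 ± 0.11 (SE). On the second probe set the gap was wider: wildtype arrays read 6.57, 6.89 and 6.89, Bmp15-/- arrays 4.09, 4.01 and 5.02, and DM arrays 4.75, 4.48 and 4.54. That is a difference of -2.41 ± 0.24 in Bmp15-/- and -2.19 ± 0.24 in DM, and no mutant array exceeded the 40th percentile there. The direction is the same on both probe sets. The fold in Bmp15-/- was 1.34 on the brighter one, and none is given for the second, whose mutant arrays are at low signal. The second carries the suffix of probe sets that match several transcripts of 1 gene.

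Mfap5 encodes a microfibril-associated glycoprotein of the extracellular matrix and is a fibroblast marker in many tissues. It was lower in DM, opposite to Acta2 and Pdgfra. Its brightest probe set measured 5.82, 6.10 and 5.63 (wildtype), 5.49, 5.94 and 4.96 (Bmp15-/-) and 4.68, 5.16 and 4.29 (DM). DM lay below every wildtype array, with a difference of -1.14 ± 0.27 (SE), while Bmp15-/- overlapped wildtype at -0.39 ± 0.27, a value of -0.62 without Bmp15-/- replicate 2 and -0.14 without Bmp15-/- replicate 3. The second Mfap5 probe set gave -0.78 ± 0.11 in DM and -0.20 ± 0.11 in Bmp15-/-. Mfap5 was close to the 40th percentile, which it exceeded on 6 and 7 of the 9 arrays.

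Cd34 encodes a sialomucin of the cell surface found on endothelium, stromal fibroblasts and blood progenitors. Its 1 probe set read 5.24, 5.26 and 4.84 (wildtype), 5.99, 5.41 and 5.62 (Bmp15-/-) and 6.36, 6.58 and 6.21 (DM). The genotypes did not overlap, although the wildtype arrays sat at the 40th percentile, where RMA compresses differences. Group means of 5.11 ± 0.24, 5.67 ± 0.30 and 6.39 ± 0.19 (SD, n = 3) differed from wildtype by 0.56 ± 0.17 (SE) in Bmp15-/- and by 1.27 ± 0.17 in DM, 2.42-fold.

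The keratin pair was higher in both mutants. Krt8, on its brightest probe set, measured 8.64, 8.57 and 8.39 (wildtype), 9.03, 8.97 and 9.46 (Bmp15-/-) and 9.01, 9.23 and 9.01 (DM). The mutants overlapped each other and lay above all wildtype arrays, by 0.62 ± 0.14 (SE) in Bmp15-/- and 0.55 ± 0.14 in DM. All 3 Krt8 probe sets gave this pattern, with differences between 0.43 and 0.62, and 2 of them carry the suffix of probe sets that can cross-hybridise.

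Krt18 read 6.86, 6.40 and 6.83 (wildtype), 7.89, 7.14 and 7.36 (Bmp15-/-) and 8.10, 7.57 and 7.93 (DM). Again both mutants were above every wildtype array, with overlap between the mutants. The differences were 0.77 ± 0.21 (SE) in Bmp15-/-, 1.70-fold, and 1.17 ± 0.21 in DM, 2.26-fold. DM minus Bmp15-/- was 0.41 ± 0.21 for Krt18 and -0.07 ± 0.14 for Krt8. In RefSeq (GRCm38.p6) Krt8 (chr15:101996711-102004342) and Krt18 (chr15:102028216-102032026) are neighbours, 23873 bases apart with 2 predicted genes between them, whereas the other 6 genes lie on 6 different chromosomes.

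**Figure D2:**
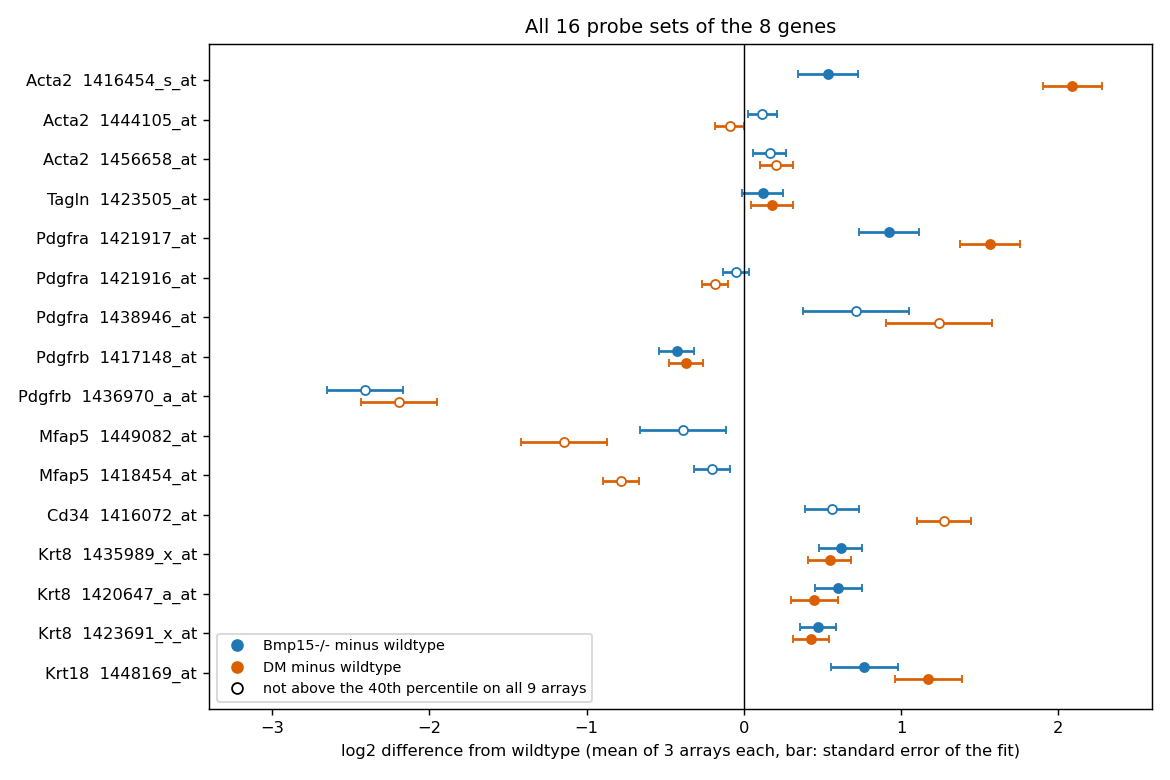
Log2 difference from wildtype (horizontal axis) of all 16 probe sets in Bmp15-/- and DM, each from 3 arrays per genotype, with the standard error of the fit as bars; open circles mark probe sets that did not exceed the 40th percentile on all 9 arrays. The 3 Krt8 probe sets and both Pdgfrb probe sets keep 1 direction, while only 1 of the 3 Acta2 probe sets shows the DM difference of 2.09.

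Counted over the brightest probe set of each gene, the Bmp15-/- arrays lay wholly above wildtype for 5 genes, wholly below for 1 and overlapped for 2. Of all 13447 genes tested, 36.8% separated these genotypes one way or the other. In DM, 5 genes lay wholly above wildtype, 2 below and 1 overlapped, where 43.3% of all genes separated. Between the mutants 3 genes, Acta2, Pdgfra and Cd34, were wholly higher in DM, where 21.4% of all genes separated. The genes were chosen on these contrasts, so nothing is read from these counts. Their median difference was 0.55 in Bmp15-/- and 0.86 in DM, beside -0.04 and -0.06 over all genes tested.

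Both mutants are compared with the same 3 wildtype arrays, so the 2 sets of differences are not independent. In such bulk samples more cells of a type and more RNA per cell cannot be told apart. The wildtype arrays, the Bmp15-/- arrays and the DM arrays also differed in a sign of RNA quality: the 3′ minus 5′ difference of the Gapdh control probe sets was 0.525 to 0.586, 0.663 to 0.728 and 0.792 to 0.953, in the same order as Acta2, Pdgfra and Cd34. The same measure of beta-actin overlapped, at 1.87 to 1.90, 1.85 to 1.92 and 1.85 to 2.12. The part of RNA quality in these differences was not tested. Oocyte RNA also varied, with list medians of 6.48 on wildtype array 2 and 6.18 on Bmp15-/- array 2 against 5.11 to 5.89 on the others. With both arrays left out, Acta2 differed from wildtype by 0.79 and 2.26, and Pdgfra by 1.17 and 1.77, all larger than with all arrays. The DM differences of Krt18 and Mfap5 became smaller in size. No difference of the 8 genes from wildtype moved there beyond the larger SD of the genotypes compared.

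Markers of other cell types were tested with limma over all 13447 genes, called at a Benjamini-Hochberg adjusted p under 0.05. By this rule 9.07% of genes were called in Bmp15-/- against wildtype, 3.29% higher and 5.78% lower. In DM against wildtype 28.1% were called, 9.95% higher and 18.2% lower, and in DM against Bmp15-/- 3.25% were, 1.64% higher and 1.61% lower. Lower calls made up 63.7% of calls in Bmp15-/- and 64.6% in DM, and 47% and 51.6% after a further quantile normalization. The 7 lists for stroma, theca, smooth muscle, pericytes, endothelium, surface epithelium and immune cells held 78 genes on the array, none of them among the 8, and 40 were bright enough to be tested. Like the lists further below, they were written with earlier results on some of these genes known.

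Of these 40 genes, 2 were called in Bmp15-/-, both higher, which is 5%. Of all genes, 9.07% were called there either way and 3.29% higher. In DM 7 were called, 5 higher and 2 lower, which is 17.5% against 28.1% of all genes (9.95% higher, 18.2% lower). The 40 genes were dimmer than the genes they are set against. Only 17 of them passed a stricter filter at the 60th percentile, against 10145 of the 13447 genes. With that filter 4 of 17 and 3612 of 10145 genes were called in DM. The part of brightness in these shares was not tested. The median difference over the 78 genes was 0.04 in Bmp15-/- and 0.03 in DM, beside -0.00 and -0.03 over all genes on the array. On all 9 arrays 32 of the 78 genes stayed below the 40th percentile and 30 stayed above it, so a part of these markers is expressed in the wildtype samples too. Leaving out wildtype replicate 2 took the Bmp15-/- count to 0, and leaving out wildtype replicate 1 took the DM count to 4.

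Among stromal markers, Dcn and Lum, which encode matrix proteoglycans of fibroblasts, stayed below the 40th percentile on all 9 arrays. Col1a1, the chain of fibrillar collagen that fibroblasts deposit, rose in DM by 0.54 ± 0.15 (SE; adjusted p = 0.0257), from 5.24 ± 0.09 to 5.78 ± 0.20 (SD, n = 3). It did not pass in Bmp15-/- (0.16, adjusted p = 0.536), and its DM call was lost without wildtype replicate 1 or 3 or DM replicate 1 or 3 (adjusted p between 0.0772 and 0.079). With the mean over its probe sets the difference was 0.19 (adjusted p = 0.301), and the second probe set averaged 5.19 in wildtype and 5.03 in DM. Of 6 stromal genes tested 1 was called higher in DM, 16.7% against 28.1% of all genes called either way and 9.95% called higher. In Bmp15-/- 0 were called against 9.07% of all genes, with 0 at an unadjusted p under 0.05. The summed linear signal of the 15 stromal genes was 649 to 696 in wildtype, 650 to 843 in Bmp15-/- and 718 to 930 in DM. Such sums weigh the brightest genes most. Here the brightest was Mgp, which averaged 8.02 in wildtype and 8.50 in DM and was not called there (adjusted p = 0.179). The part of stromal cells in the differences of Pdgfra and Cd34 was not tested.

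Among the smooth muscle markers that define the type, Cnn1 (calponin) was below the 40th percentile on all arrays, though its DM arrays lay above all wildtype arrays. Myh11 (smooth muscle myosin) averaged 5.35, 5.06 and 5.18 in wildtype, Bmp15-/- and DM, and Des (desmin) 6.48, 6.52 and 6.34. Neither Myh11 (adjusted p = 0.32 in DM) nor Des (0.378) was called. Of the other genes on the list a pair was called higher. Cald1 (caldesmon, an actin-binding protein) rose in Bmp15-/- by 0.89 ± 0.16 (SE; adjusted p = 0.0126) and in DM by 1.44 ± 0.16 (adjusted p = 0.000353), and every mutant array lay above wildtype. Mylk (myosin light chain kinase) rose in DM by 1.10 ± 0.18 (adjusted p = 0.00229) and not in Bmp15-/- (-0.11, adjusted p = 0.747).

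Smtn (smoothelin, a contractile muscle protein) fell by 0.52 in DM (adjusted p = 0.00836). Among genes that limma did not call in DM, Myl9 differed by 0.41 (adjusted p = 0.0825), with every DM array above wildtype. Ppp1r14a differed by -0.30 (adjusted p = 0.0775), with every DM array below wildtype. Altogether 3 of 11 tested smooth muscle genes were called in DM, 2 higher and 1 lower, 27.3% beside 28.1% of all genes (9.95% higher, 18.2% lower). In Bmp15-/- 1 was called, higher, 9.09% beside 9.07% (3.29% higher). At an unadjusted p under 0.05 there were 6 and 4. The DM calls of Cald1, Mylk and Smtn held in every alternative run, and the Bmp15-/- call of Cald1 was lost without wildtype replicate 2 (adjusted p = 0.0555) and with the mean over its probe sets (0.22, adjusted p = 0.226). The list's summed linear signal, carried by its brightest genes, was 3670 to 4300 in wildtype, 3820 to 5250 in Bmp15-/- and 5570 to 7160 in DM. The part of smooth muscle cells in the Acta2 difference was not tested.

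Theca, the layer outside the follicle's basement membrane, was represented by 4 tested genes, of which 2 were called in DM, 50% against 28.1% of all genes, and 0 in Bmp15-/- against 9.07% (0 at an unadjusted p under 0.05). Cyp17a1, the enzyme of theca androgen synthesis, exceeded the 40th percentile on 1 of 9 arrays. Ptch1, the hedgehog receptor, rose in DM by 0.57 ± 0.10 (SE; adjusted p = 0.00371), and its wildtype mean was 11.34. With the mean over all its probe sets the difference was 0.21 (adjusted p = 0.0734). Hhip, a hedgehog-binding inhibitor, fell by 0.28 (adjusted p = 0.0379), a call lost in 9 of 14 alternatives with adjusted p up to 0.135. The theca sums, carried by the list's brightest genes, were 4000 to 4970, 4830 to 5170 and 5820 to 6330 in wildtype, Bmp15-/- and DM.

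Pericyte, endothelial and immune lists had only 3, 6 and 4 genes bright enough to be tested. None was called in either mutant by limma, against 9.07% of all genes in Bmp15-/- and 28.1% in DM. At an unadjusted p under 0.05 the lists held 0, 0 and 1 genes in Bmp15-/- and 1, 0 and 0 in DM. Among their defining genes Kcnj8 and Pecam1 were below the 40th percentile on all 9 arrays. Rgs5 averaged 4.83, 5.01 and 5.08, Cspg4 6.03, 6.05 and 6.16, Cdh5 5.16, 5.29 and 5.22, Ptprc 6.01, 6.34 and 6.11, and Csf1r 5.58, 5.56 and 5.60 in wildtype, Bmp15-/- and DM. A second Cdh5 probe set averaged 5.35, 5.08 and 4.61, with every DM array below every wildtype array. When each probe set was tested on its own, 1 of 10 endothelial probe sets was called lower in DM. The summed signals overlapped between wildtype and DM for pericytes (212 to 236 and 220 to 235) and immune cells (450 to 471 and 467 to 523), and were 636 to 649 and 597 to 612 for endothelium.

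Surface epithelium, a source of Krt8 and Krt18 outside the follicle, had 1 gene of 6 called in each mutant, higher in both. That is 16.7% against 28.1% of all genes in DM (9.95% higher) and 9.07% in Bmp15-/- (3.29% higher). Cldn7, a tight junction protein, rose by 0.39 in Bmp15-/- (adjusted p = 0.0387) and by 0.35 in DM (adjusted p = 0.0249). The first call was lost in 8 of 15 alternatives, among them each wildtype and each Bmp15-/- array left out (adjusted p between 0.0666 and 0.12), and the second without wildtype replicate 1 or DM replicate 1 (adjusted p of 0.0891 and 0.077). Krt19 was below the 40th percentile on all arrays. Krt7 averaged 6.02, 6.08 and 6.05, Epcam 6.78, 6.90 and 6.66, and Upk3b 5.59, 5.87 and 5.87, and none of the 3 was called. The summed signal was 510 to 547 in wildtype, 547 to 575 in Bmp15-/- and 535 to 543 in DM.

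**Figure D3:**
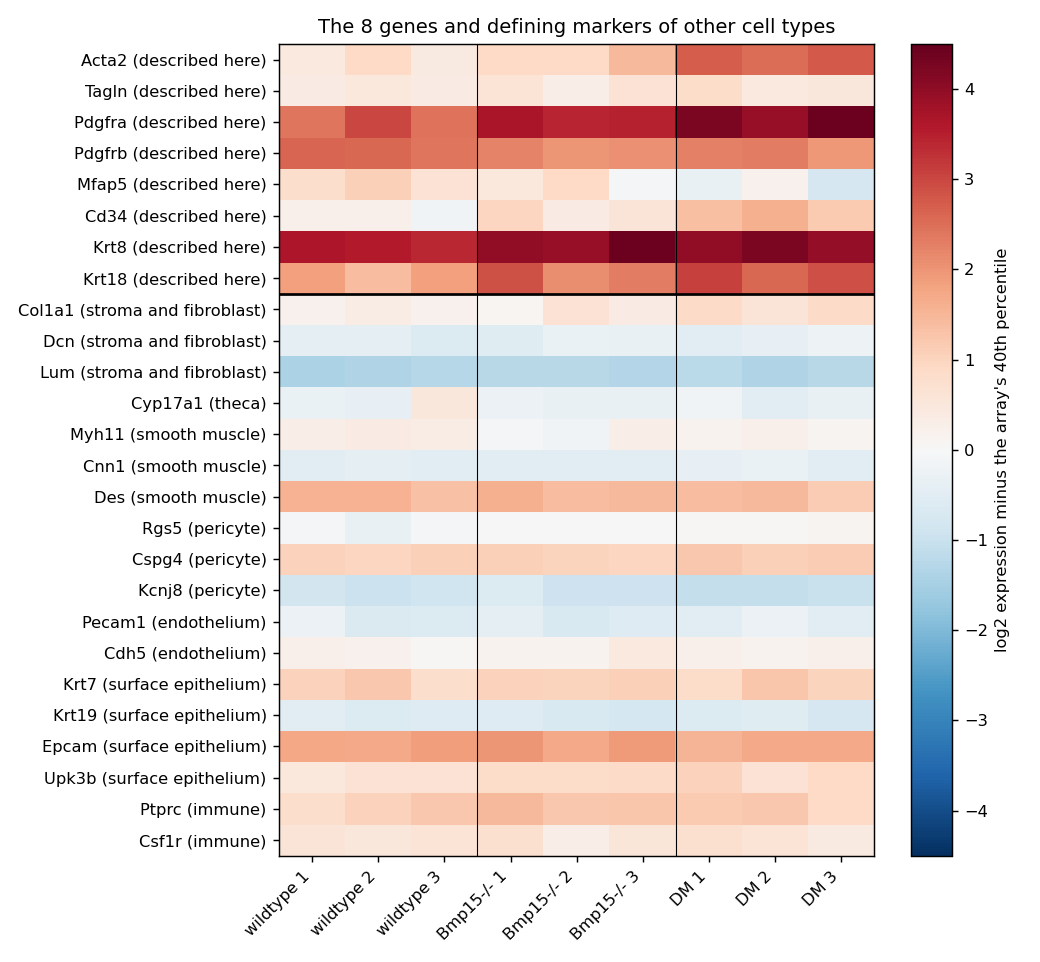
Each cell gives log2 expression minus that array's 40th percentile, for the 8 genes (upper rows) and defining markers of other cell types (lower rows), with the 9 arrays in columns by genotype. Acta2, Pdgfra, Cd34 and Krt18 redden from left to right, while Dcn, Lum, Cnn1, Kcnj8, Pecam1 and Krt19 stay below 0 throughout.

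The granulosa identity of the samples was read from its own markers. Fshr, the receptor for follicle-stimulating hormone, averaged 10.49, 10.39 and 10.18 and Amh 6.41, 6.24 and 6.32 in wildtype, Bmp15-/- and DM, and neither was called. Foxl2, the transcription factor that maintains granulosa identity, fell in DM by 0.78 ± 0.17 (SE; adjusted p = 0.00947). Of 13 granulosa genes tested 3 rose and 4 fell in DM, 53.8% against 28.1% of all genes. Among them Slc38a3, an amino acid transporter, rose by 1.24 and Amhr2, the receptor for anti-Müllerian hormone, by 0.72, while Hsd17b1, an enzyme of oestradiol synthesis, fell by 0.81 and Inhbb, an inhibin subunit, by 0.75. By limma 0 were called in Bmp15-/-, against 9.07% of all genes, with 2 at an unadjusted p under 0.05. The list's summed signal was 66100 to 68100 in wildtype, 65300 to 66900 in Bmp15-/- and 53100 to 64100 in DM. Of 14 tested oocyte genes 0 were called by limma in either mutant, against 9.07% of all genes in Bmp15-/- and 28.1% in DM. At an unadjusted p under 0.05 there were 0 in Bmp15-/- and 1 in DM.

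SRF with its actin-sensing cofactors drives Acta2 in muscle, and a list of SRF, these cofactors, genes of the actin cytoskeleton that many cell types express, and Ccn1 and Ccn2 was read beside it. Ccn1 and Ccn2 encode secreted matrix-associated proteins and are known SRF targets. The list was written with earlier results on some of its genes known, so nothing is read from its shares. In DM 9 of 14 tested genes rose and 1 fell, which is 71.4% against 28.1% of all genes, with a median difference of 0.43 over the list. In Bmp15-/- 3 rose, 21.4% against 9.07% of all genes called either way and 3.29% called higher, with a median of 0.18. The number that rose there was 1 without wildtype replicate 2 or 3 or Bmp15-/- replicate 2 or 3. Ccn2 (connective tissue growth factor) measured 11.55 ± 0.39 in wildtype, 12.94 ± 0.14 in Bmp15-/- and 13.42 ± 0.07 in DM (SD, n = 3). It rose by 1.39 ± 0.17 (SE; adjusted p = 0.00276) and 1.87 ± 0.17 (adjusted p = 0.000129), with every mutant array above wildtype.

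Srf itself read 8.52, 7.74 and 8.50 (wildtype), 9.21, 9.07 and 9.18 (Bmp15-/-) and 10.01, 9.21 and 9.69 (DM). It rose by 1.38 ± 0.24 (SE; adjusted p = 0.00274) in DM, and by 0.90 in Bmp15-/- (adjusted p = 0.045), a call lost in 10 of 16 alternatives. Those include each of the wildtype and Bmp15-/- arrays left out in turn and DM replicate 3 left out (adjusted p between 0.0515 and 0.127). In DM, Ccn1 rose by 1.72, Cnn2 (calponin 2, the form outside muscle) by 0.99, Vcl (vinculin) by 0.88 and Flna (filamin A) by 0.68. Vcl rose in Bmp15-/- by 0.54 (adjusted p = 0.0317) and lost that call with any of the 6 wildtype or Bmp15-/- arrays left out (adjusted p between 0.0508 and 0.112), and with the mean over its probe sets (0.29, adjusted p = 0.129). Of the 2 SRF cofactors on the list, Mrtfb rose by 0.41 and Mrtfa fell by 0.89 in DM (adjusted p of 0.0216 and 0.0151). The Mrtfb call was lost without wildtype replicate 1 or 3 (adjusted p of 0.0684 and 0.0666) and with the mean over its probe sets (0.13, adjusted p = 0.276). The Mrtfa call was lost without wildtype replicate 2 or 3 or DM replicate 1 (adjusted p between 0.0505 and 0.057). The list's summed signal was 36500 to 38800, 47500 to 51100 and 56400 to 62400 in wildtype, Bmp15-/- and DM.

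Keratin filaments attach to desmosomes, the adhesive junctions built from desmogleins, desmocollins, plakophilins and desmoplakin, and a list of other keratins, desmosomal proteins, linkers and Vim (vimentin, the intermediate filament of mesenchymal cells) was read beside Krt8 and Krt18. In DM 7 of 13 tested genes rose and 2 fell, which is 69.2% against 28.1% of all genes, with a median of 0.24 over the list. In Bmp15-/- 1 rose, 7.69% against 9.07% of all genes called either way and 3.29% called higher, with a median of 0.18. As this list too was written with earlier results known, nothing is read from its shares. Pkp2 (plakophilin 2) read 8.05, 7.94 and 7.99 (wildtype), 8.50, 8.04 and 8.57 (Bmp15-/-) and 9.60, 9.43 and 9.23 (DM). It rose in DM by 1.43 ± 0.15 (SE; adjusted p = 0.000229), with all DM arrays above the others.

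Dsc2 (desmocollin 2) rose in DM by 0.91 (adjusted p = 0.00561) and in Bmp15-/- by 0.83 (adjusted p = 0.0238). The Bmp15-/- call was lost without wildtype replicate 1 or 2 or Bmp15-/- replicate 1 or 3 (adjusted p between 0.0555 and 0.0902). Dsg2 (desmoglein 2) rose in DM by 0.96 (adjusted p = 0.0164), though its DM arrays overlapped wildtype, and this call was lost without wildtype replicate 1 or 3 or DM replicate 3 (adjusted p between 0.0546 and 0.0635). Vim rose by 0.44 (adjusted p = 0.0307), and leaving out any wildtype array or DM replicate 1 ended the call (adjusted p between 0.0601 and 0.0956). The keratins of the list went both ways in DM. Krt20 rose by 0.92 (adjusted p = 0.0416) and Krt5 by 0.25 (adjusted p = 0.0366), calls lost in 8 of 15 and 8 of 16 alternatives. Of the keratins that fell, Krt80 did so by 0.70 (adjusted p = 0.00415) and Krt10 by 0.99 (adjusted p = 0.0496). Krt10 lost its call in 9 of 16 alternatives. Without wildtype replicate 1 or 3 the number of genes of this list that rose in DM was 2, and without DM replicate 1 it was 4. In Bmp15-/- it was 0 without wildtype replicate 1 or 2 or Bmp15-/- replicate 1 or 3, and 2 without Bmp15-/- replicate 2 or DM replicate 2. The summed signal of the list was 8070 to 8970 in wildtype, 9420 to 9750 in Bmp15-/- and 10800 to 11900 in DM.

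Ligands of the receptors were read as a list of 4. Pdgfa rose in DM by 0.97 ± 0.17 (SE; adjusted p = 0.00266), from 9.91 ± 0.18 to 10.89 ± 0.31 (SD, n = 3), and Pdgfc by 0.62 ± 0.10 (adjusted p = 0.00241), from 11.81 ± 0.11 to 12.43 ± 0.14. Both are ligands of receptor alpha, whose gene was higher in the same arrays. Pdgfb and Pdgfd, which encode ligands that bind receptor beta but not all of them it alone, were not called. Pdgfb differed by -0.02 in DM. Pdgfd varied widely there, at 8.60, 5.21 and 5.40 against 6.69, 6.73 and 7.04 in wildtype (adjusted p = 0.728), and its DM arrays lay on both sides of wildtype. By limma 0 of the 4 were called in Bmp15-/-, against 9.07% of all genes, with 1 at an unadjusted p under 0.05. In DM 2 of the 4 were called, both higher, 50% against 28.1% of all genes called either way and 9.95% called higher.

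Microfibril and elastic fibre genes, the partners of Mfap5, went both ways. Fbn2 (fibrillin 2), a scaffold of microfibrils, rose by 0.72 ± 0.12 (SE; adjusted p = 0.00938) in Bmp15-/- and by 1.40 ± 0.12 (adjusted p = 0.000107) in DM. Its values were 11.35, 11.34 and 11.30 (wildtype), 12.06, 11.80 and 12.29 (Bmp15-/-) and 12.82, 12.60 and 12.77 (DM), with no overlap. Loxl1, an enzyme that cross-links elastin, fell in DM by 1.61 ± 0.26 (adjusted p = 0.00206), the same direction as Mfap5. Ltbp1, a latent TGF-beta binding protein, fell by 0.38 (adjusted p = 0.0223), a call lost without wildtype replicate 1 or 3 or DM replicate 1 or 3 (adjusted p between 0.0597 and 0.0763). Altogether 3 of 6 tested genes were called in DM, 1 higher and 2 lower, 50% against 28.1% of all genes (9.95% higher, 18.2% lower). In Bmp15-/- 1 was called, higher, 16.7% against 9.07% (3.29% higher).

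**Figure D4:**
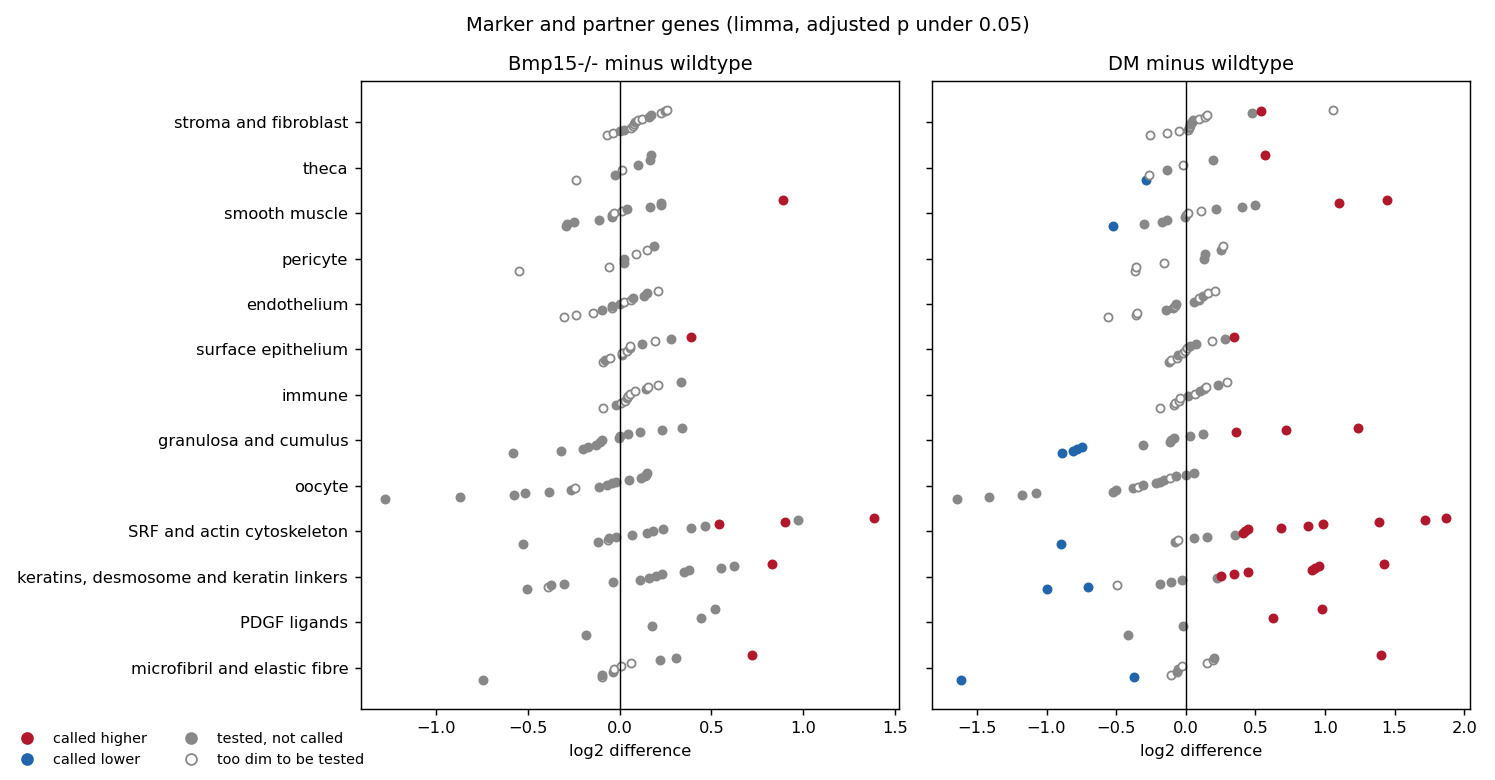
Log2 difference from wildtype (horizontal axis) of every gene of the marker and partner lists, in Bmp15-/- (left) and DM (right); each point is a gene, coloured by its limma call, and open points were too dim to be tested. In DM 9 of 14 tested SRF and actin genes were called higher and 1 lower. In the list of keratins, desmosome genes and Vim 7 of 13 were called higher and 2 lower. Over the lists of other somatic cells 5 of 40 were called higher and 2 lower. Of all genes tested, 9.95% were called higher in DM and 18.2% lower. All lists were written with earlier results known.

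Genes with the most similar profile were found for the 6 genes that spanned over 1 log2 unit, by the root mean square difference over the 9 arrays after each gene was centred on its own mean. The nearest to Acta2 were Sulf1 (0.29), Retreg1 (0.30) and Trim2 (0.30). Sulf1, an enzyme that trims heparan sulfate, averaged 5.17, 6.03 and 7.11 in wildtype, Bmp15-/- and DM. For Pdgfra they were Ripk4 (0.19), Slc40a1 (0.20), which encodes the iron exporter ferroportin, and Msi1 (0.20). For Cd34 they were Mtarc2 (0.17), Pik3r1 (0.17) and Stk26 (0.19).

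Krt8 had the closest partners, Rab27b (0.11), Gm6607 (0.12) and Cyfip2 (0.12), and Krt18 was nearest to Syne2 (0.18), Taf4b (0.19) and Tcf7l2 (0.20). Mfap5 was nearest to Nmb (0.18), Bub1 (0.20) and Nt5dc2 (0.21), all lower in DM. Bub1, a mitotic checkpoint kinase, averaged 10.32, 9.90 and 9.22. None of these 18 genes belongs to the 8. Within the set the closest pairs were Cd34 and Krt18 (0.31), Pdgfra and Cd34 (0.32) and Pdgfra and Krt18 (0.36), closer than Krt8 and Krt18 (0.43). Acta2 and Mfap5 were farthest apart, at 1.44. The genes were centred and not scaled, so these distances also depend on how far a gene spans, which was 1.07 for Krt8 and 2.43 for Acta2. These distances describe 9 arrays and carry no test.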

How the data were processed

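RNA of cumulus cells (10 ng per sample, 2 rounds of amplification) was hybridised to arrays of 45101 probe sets. The authors deposited log2 expression values. RMA and affy are named in the submitters' processing notes, with no version given in the sources used here. Values ran from 2.87 to 14.53. Two-round amplification favours 3′ ends. Scanner files were not used here.

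Probe sets were named from the platform annotation, with symbols updated through RefSeq (GRCm38.p6): 34958 had 1 gene, 932 several and 9211 none, and 34754 matched RefSeq. For each of 18194 genes the brightest probe set on average was used, and the gene was tested if at least 3 arrays exceeded the 40th percentile of their array (13447 genes). All 9 arrays entered 1 limma 3.58.1 fit (R 4.3.3) with genotype as the term and 6 residual degrees of freedom; SEs of the 8 genes come from a fit over all probe sets. Tests were 2-sided, adjusted by Benjamini-Hochberg, called under 0.05. The scripts were tested on simulated data. Correlations were at least 0.988 within a genotype and 0.975 between genotypes.

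The 8 genes and 13 lists (156 genes, 150 matched) were chosen with earlier results of these data known. Named genes are the 8, the defining genes of the lists, up to 4 called genes per list and comparison with the smallest p, and for genes spanning over 1 unit the 3 most similar genes. Genes named outside this rule (Acta1, Actb, Actc1, Actg1, Actg2, Mgp, Myl9, Ppp1r14a, Srf, Flna, Mrtfa, Mrtfb, Vim, Krt5, Krt10, Krt20, Pdgfb, Pdgfd) were chosen after their values were seen. Figures were drawn with matplotlib 3.10.9. Samples with the same replicate number were not treated as pairs in the main fit, and the closing section gives how they deviated.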

Additional observations from a re-analysis of the deposited data

How the results depend on the processing

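Of 256 alternative values of the 8 genes none reversed and 5 moved beyond the replicate SD, all with the mean over all probe sets of a gene: Acta2 0.74 in DM, Pdgfra 0.53 and 0.88, and Pdgfrb -1.42 and -1.28. The filters, the intensity trend and the replicate block leave a difference of group means unchanged by construction, so those values could not move. A reversal was counted only where the main difference exceeded the replicate SD, which those of Tagln and of Mfap5 in Bmp15-/- did not. With single arrays left out no difference of the 8 genes from wildtype changed direction. Dim genes near the 40th percentile (Mfap5, Cd34, Tagln) and 3 arrays per genotype limit the precision.

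With 1 array left out at a time, genes called numbered 444 to 1653 in Bmp15-/- (main 1219), 2630 to 4147 in DM (main 3780) and 108 to 924 in DM against Bmp15-/- (main 437). Other-cell marker genes called were 0 to 2 and 4 to 9, SRF and actin genes higher 1 to 4 in Bmp15-/-, and keratin and desmosome genes higher 0 to 2 in Bmp15-/- and 2 to 6 in DM. The Bmp15-/- count was 444 to 628 without any 1 wildtype array or Bmp15-/- replicate 2 or 3, and the count between mutants was 108 without Bmp15-/- replicate 2 and 924 without DM replicate 2, with the other arrays between. With both arrays of most oocyte RNA left out (chosen after seeing the data), 149, 2191 and 11 genes were called, with 0 other-cell genes, 1 SRF and actin gene and 0 keratin genes in Bmp15-/-, and 4 keratin genes in DM; fewer arrays were fitted.

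Other-cell genes called in Bmp15-/- were 1 with the stricter filter, the mean over probe sets, the replicate block, or every probe set tested (added after seeing the data), and in DM 11 with no filter and 4 with the stricter filter, which test 78 and 17 genes. SRF and actin genes higher in Bmp15-/- were 6 with the stricter filter, quantile normalization, replicate block or intensity trend, and keratin genes 2 with quantile normalization. The cause of these shifts was not tested.

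Samples with the same replicate number did not all deviate together (r from -0.080 to 0.258 in 9 pairs, -0.204 to 0.17 in 18 others). With the replicate block, 1084, 3587 and 360 genes were called.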

Other observations

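The stromal gene Ogn (osteoglycin, a small matrix proteoglycan) was too dim to be tested and read 4.03, 4.46 and 3.95 (wildtype), 4.00, 4.38 and 4.83 (Bmp15-/-) and 5.29, 5.41 and 4.92 (DM). Every DM array lay above the other arrays, and 2 of the 9 arrays, both DM, exceeded the 40th percentile. Myocd (myocardin, the SRF cofactor of muscle) was bright on all arrays, averaging 11.16 in wildtype, 11.39 in Bmp15-/- and 11.66 in DM, and it was not called in DM by limma (0.49, adjusted p = 0.0515). Both genes were chosen after their values were seen.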
